A study of Mus musculus with 12 samples.

Results

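miR-685 was followed with the TaqMan assay mmu-miR-685_001670, 1 of 619 deposited miRNA assay lines of the OpenArray. This plate reads each miRNA by quantitative PCR as a threshold cycle (Ct), and the paper gives a larger number of miRNAs for it. The Ct falls by about 1 cycle for each doubling of the miRNA. The assay was chosen because it gave the strongest response to kainic acid (KA) in both genotypes, so every difference between treatments given here for miR-685 is a description without a test. The samples were hippocampi of C57BL/6 mice, given as 8 weeks old in the labels and as 8 to 12 weeks old males in the methods. The 4 groups of 3 samples comprised wild-type (wt) mice, as controls or post-SE, and P2rx7-/- mice, as controls or post-SE. Post-SE mice received 0.3 μg KA into the amygdala, which triggers status epilepticus (SE), and control mice received vehicle and 0 μg KA. All mice were given 6 mg/kg lorazepam 40 min after the injection, and the hippocampus on the injected side was taken at 8 h. For each sample, hippocampi from 2 mice were pooled. The knockout was constitutive and lacked exon 2 of P2rx7 in every cell. These assays do not measure P2rx7 itself, so the genotype labels could not be checked from them. The paper reports a Western blot in which its protein was absent from P2rx7-/- hippocampus post-SE.

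MiRNAs are short non-coding RNAs that guide Argonaute proteins to target mRNAs, mainly through the seed at their 5′ end, and thereby lower translation or stability of the targets. Each miRNA hairpin gives a guide strand and a passenger or star strand. Seizures are known to alter the levels of many hippocampal miRNAs. The P2X7 receptor, encoded by P2rx7, is an ATP-gated ion channel known for its part in the release of Interleukin-1β.

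Of the 10 miRNAs that stood nearest to miR-685 by the measures described below, counting miR-685 itself, 5 were found by name in the RefSeq table (build GRCm38.p6). Their mature sequences are shown because these miRNAs had the most similar profile over the samples (miR-21a-3p, miR-27a-5p, miR-491-5p) or followed miR-685 in the size of the response (miR-324-3p, miR-21a-3p, miR-27a-3p). Capitals mark the seed, bases 2 to 8.
mmu-miR-21a-3p: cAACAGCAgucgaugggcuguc
mmu-miR-27a-5p: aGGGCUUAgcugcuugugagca
mmu-miR-27a-3p: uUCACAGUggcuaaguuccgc
mmu-miR-324-3p: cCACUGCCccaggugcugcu
mmu-miR-491-5p: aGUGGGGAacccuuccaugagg
The 5 seeds were all different. The miRNAs lie at chr11:86584082-86584103 on the minus strand (miR-21a-3p, read by the assay mmu-miR-21#, here miR-21*), chr8:84208685-84208706 on the plus strand (miR-27a-5p, assay hsa-miR-27a#, here miR-27a*), chr8:84208727-84208747 on the plus strand (miR-27a-3p, assay hsa-miR-27a), chr11:70012095-70012114 on the plus strand (miR-324-3p) and chr4:88122057-88122078 on the plus strand (miR-491-5p). miR-27a-5p and miR-27a-3p are both arms of 1 hairpin. The other names looked up were miR-685, miR-2135, miR-150, miR-135b and miR-219-2-3p.

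A Ct was listed for 470 to 538 miRNA assays per sample, and 335 assays had a Ct below 28 in all 12 samples. The mean Ct over these 335 assays lay between 18.2 and 19.3. Neuronal miRNAs were present: miR-128a had a Ct in all samples, and miR-124a had one in 5 of 6 control and all 6 post-SE samples. wt control replicate 1 stood apart from the other samples. Its Ct values correlated with those of the others with Spearman coefficients of 0.660 to 0.737 across the 335 assays, against 0.872 to 0.989 between any other pair (across assays, which are not independent replicates). Its snoRNA135 wells had an SD of 3.63 cycles, and the lowest SD of any sample was 0.197. ath-miR159a, a plant miRNA used as a negative control, had a Ct in 2 of 24 wells, at 23.9 in wt control replicate 1 and at 13.5 in P2rx7-/- post-SE replicate 1. Differences in wt mice without wt control replicate 1, and in P2rx7-/- mice without P2rx7-/- post-SE replicate 1, are therefore given where they move a value that is described.

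miR-685 was detected in every sample. In wt mice its Ct was 22.31, 20.17 and 21.76 in controls and 19.16, 18.81 and 18.53 post-SE. In P2rx7-/- mice it was 21.95, 20.03 and 20.46 in controls and 17.38, 18.68 and 19.73 post-SE. Before any normalization, all 6 post-SE samples thus had a lower Ct than all 6 control samples.

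Levels were then expressed as −ΔCt, the mean Ct of the 335 assays in the sample minus the Ct of miR-685, a log2 scale on which higher means more miRNA. In wt mice the −ΔCt of miR-685 was −3.26, −1.61 and −3.51 in controls and 0.11, 0.08 and 0.09 post-SE. In P2rx7-/- mice it was −2.79, −1.10 and −1.32 in controls and 1.12, 0.41 and −0.65 post-SE. The treatments did not overlap, and the lowest post-SE sample (P2rx7-/- replicate 3) lay 0.45 cycles above the highest control sample (P2rx7-/- replicate 2). Within wt mice this distance was 1.70 cycles, and within P2rx7-/- mice it was the same 0.45 cycles. Within each treatment the 2 genotypes overlapped. Over the 335 assays, P2rx7-/- samples lay without overlap above wt samples for 3.58% of assays in control and 2.09% post-SE, and below for 10.4% and 3.58%.

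**Figure D1:**
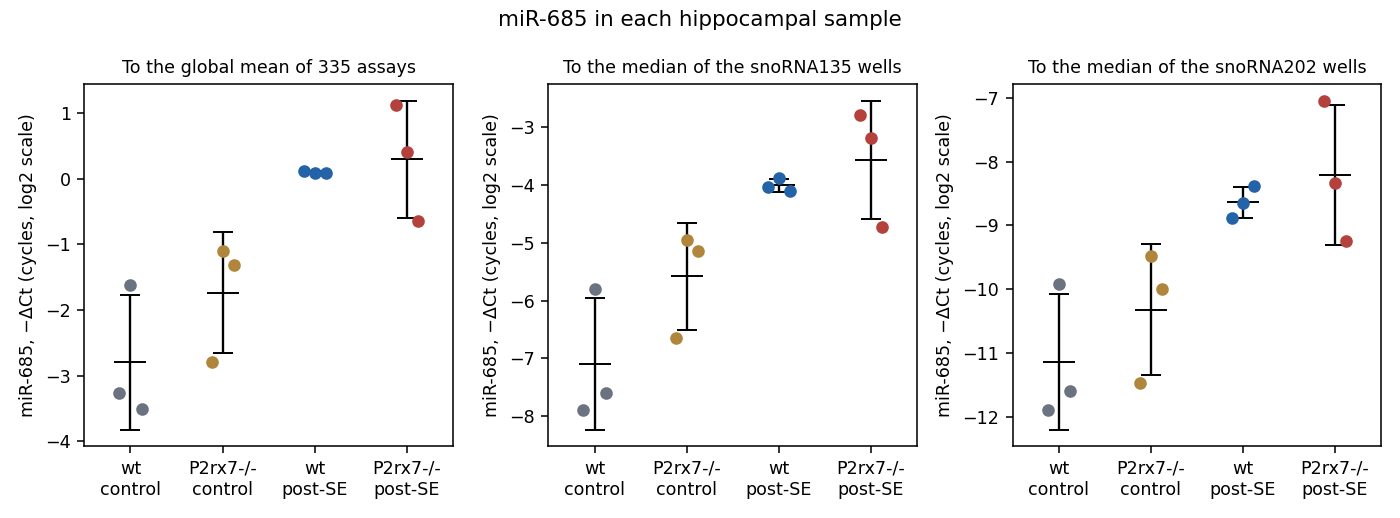
−ΔCt of miR-685 (cycles, log2 scale, higher means more miR-685) in each of the 12 samples, normalized to the mean Ct of 335 assays, to the median of the snoRNA135 wells or to the median of the snoRNA202 wells. Points are samples, and bars give the mean ± SD of 3 samples. In all 3 panels every post-SE sample lies above every control sample, and the wt post-SE samples lie closest together.

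The mean −ΔCt of wt controls was −2.80 ± 1.03 (SD, n = 3), and that of P2rx7-/- controls was −1.73 ± 0.92. The mean post-SE was 0.09 ± 0.02 in wt and 0.29 ± 0.89 in P2rx7-/- mice. In this order from lowest to highest, the 2 control groups did not differ from each other beyond their spread, nor did the 2 post-SE groups. The difference between wt post-SE and wt control samples was 2.89 ± 0.63 on the log2 scale (standard error from limma over all 12 samples), or 7.41-fold. In P2rx7-/- mice the difference from the control samples of the same genotype was 2.03 ± 0.63, or 4.08-fold. Relative to the control mean of their own genotype, the wt post-SE samples lay at 7.51-, 7.35- and 7.36-fold and the P2rx7-/- post-SE samples at 7.24-, 4.42- and 2.12-fold. The highest wt control sample stood at 2.27-fold of its own group mean. The response in P2rx7-/- mice was smaller than that in wt mice by 0.86 on the log2 scale, with a standard error of 0.90, and was not tested because both responses entered the choice of the assay. Without wt control replicate 1 the difference in wt mice was 2.63, and without P2rx7-/- post-SE replicate 1 the difference in P2rx7-/- mice was 1.62.

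The 3 wt post-SE samples spanned 0.03 cycles, the second smallest SD in this group among the 335 assays, whose median SD there was 0.43. In the other groups miR-685 varied more. Its SD pooled over the 4 groups was 0.82 cycles, ranking 112 of 335 from the widest, and the median over all assays was 0.64. Each miRNA was read in 1 well per sample, so this spread includes both the error of the assay and the difference between pools.

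Genotype was tested, since no difference between genotypes was used to choose the assay. The group means compared within control or post-SE also entered both responses, so those p-values and intervals are not free of the choice. Only the difference averaged over both treatments is unrelated to the responses used. In control mice, miR-685 was 1.06 ± 0.63 higher on the log2 scale (mean difference ± SE) in P2rx7-/- than in wt samples, or 2.09-fold, which did not pass the test (limma, adjusted p = 0.665, with a 95% interval of −0.35 to 2.47). The two-sided exact permutation test of 3 against 3 samples gave p = 0.2, where the smallest p it allows is 0.1. Without wt control replicate 1 the difference was 0.84. Post-SE the difference between genotypes was 0.20 ± 0.63 (limma, adjusted p = 0.999, 95% interval −1.21 to 1.61), with an exact permutation p of 0.7, and it was −0.22 without P2rx7-/- post-SE replicate 1. Averaged over both treatments it was 0.63 ± 0.45 (limma, adjusted p = 0.930, 95% interval −0.37 to 1.63). These intervals still include differences of over 2-fold in either treatment. Over all 335 assays, limma called 0 assays between genotypes (0.0%), with 20 assays at an unadjusted p below 0.05 in control, 4 post-SE and 16 averaged. Nothing says that the pools of a group were handled independently, so the p-values measure the spread between these samples.

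The level of miR-685 was next related to the small nucleolar RNAs snoRNA135 and snoRNA202, each read in up to 16 wells per sample. They were taken as endogenous controls because the deposited Ct values hold them, whereas the paper's methods name other RNAs as internal controls. snoRNA135 had a Ct in 14 to 16 wells of each sample. Its −ΔCt, from the median of the wells, was 4.30 ± 0.29 (SD, n = 3) in controls and 4.10 ± 0.12 post-SE in wt mice. P2rx7-/- mice had 3.84 ± 0.02 and 3.86 ± 0.25. Its levels in the treatments overlapped in both genotypes. snoRNA202 had a median Ct between 10.1 and 10.5, near the lowest Ct in the table, and 3 to 16 wells with a Ct, with 3 in wt control replicate 3. Its −ΔCt averaged 8.34 ± 0.28 in controls and 8.74 ± 0.26 post-SE in wt mice. P2rx7-/- mice had 8.59 ± 0.17 and 8.5 ± 0.30.

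Relative to snoRNA135, miR-685 in wt mice stood at −7.90, −5.79 and −7.60 in controls and −4.04, −3.88 and −4.10 post-SE. In P2rx7-/- mice it stood at −6.64, −4.95 and −5.14 in controls and −2.80, −3.19 and −4.73 post-SE. The treatments again did not overlap, with a distance of 0.22 cycles between the nearest samples. The difference between treatments was 3.09 ± 0.69 in wt and 2.01 ± 0.69 in P2rx7-/- mice. With the median of the snoRNA202 wells it was 2.5 ± 0.71 and 2.11 ± 0.71, and the nearest samples were 0.24 cycles apart. The wells of snoRNA135 also show how far 1 well can lie from the level of its sample. The median distance of a well from the median of its sample was 0.20 cycles, and 27 of 187 wells (14.4%) lay farther away than the 0.45 cycles that separated the treatments for miR-685. Of these, 11 lay farther than the 1.70 cycles that separated them in wt mice. The mean difference of 2.03 cycles in P2rx7-/- mice was exceeded by 8, of which 4 were in wt control replicate 1. For snoRNA202, 9, 2 and 1 of 157 wells lay beyond the same distances. Both snoRNAs had a lower Ct than miR-685, and 2.03 cycles is a difference of group means. These counts therefore do not measure the error of the single miR-685 well.

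Within each treatment, the −ΔCt of miR-685 was compared with that of both snoRNAs and with the mean Ct of the sample over 6 samples, 6 relations in all. Both genotypes were pooled. The same mean Ct enters both sides of each relation, so a coefficient can also reflect that shared term. In control samples Pearson's r was −0.55 with snoRNA135 (Spearman's rho −0.66) and 0.14 with snoRNA202 (rho 0.26). In post-SE samples r was −0.41 with snoRNA135 (rho −0.49) and −0.49 with snoRNA202 (rho −0.09). The exact permutation p of these 4 coefficients lay between 0.257 and 0.792 for r and between 0.175 and 0.919 for rho, and the lowest adjusted p was 0.60. With the mean Ct, r was 0.30 in control and −0.57 in post-SE samples (exact permutation p = 0.524 and 0.257). Leaving out the 2 samples whose miR-685 lay farthest from the median changed r with snoRNA135 to −0.59 in control and −0.91 in post-SE samples, r with snoRNA202 to −0.38 and 0.09, and r with the mean Ct to −0.36 and 0.35. No relation passed the test, and over 6 samples only strong relations could have.

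To see how far the difference depends on what miR-685 is measured against, each of the other 334 assays was used in turn as the only reference. miR-685 was higher post-SE in the mean of both genotypes against 321 of the 334 assays (96.1%), and by more than 2-fold (1 cycle) in both against 302 (90.4%). The median difference over the references was 2.98 in wt and 2.00 in P2rx7-/- mice, with 80% of the references between 1.90 and 3.90 and between 1.31 and 2.75. Within wt mice the treatments separated without overlap, post-SE higher, against 282 references (84.4%), and within P2rx7-/- mice against 180 (53.9%). All 6 post-SE samples lay above all 6 control samples against 137 references (41.0%), and the count was 220 without P2rx7-/- post-SE replicate 3, the post-SE sample with the lowest level, 168 without wt control replicate 1 and 142 without P2rx7-/- post-SE replicate 1. Against no reference did the samples of a genotype separate in the other direction. These counts describe how the references vary around the same miR-685 readings and are not independent of each other. miR-685 was chosen for its rise, and the median difference over all 335 assays was −0.09 in wt and 0.02 in P2rx7-/- mice. A rise against most references thus follows from the choice and adds no evidence for the response.

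**Figure D2:**
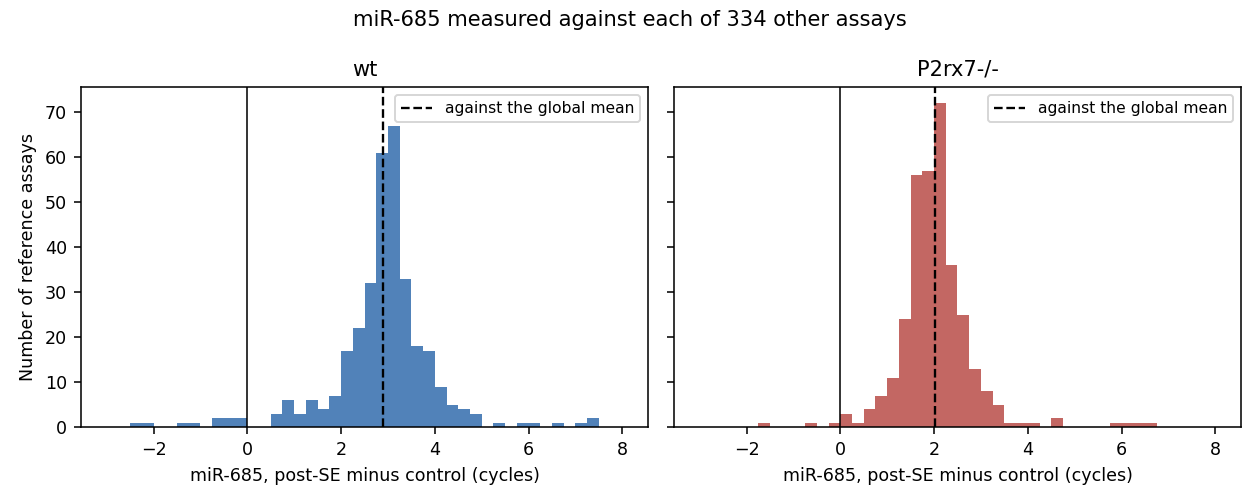
Histogram of the difference of miR-685 between post-SE and control samples (cycles, bins of equal width) when each of 334 other assays is the only reference, in wt and P2rx7-/- mice. The dashed line is the difference against the global mean (2.89 and 2.03), and most references lie above 0 in both genotypes.

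Among the 335 assays, miR-685 stood first by the smaller of its 2 differences between treatments, the measure of a response in both genotypes. By the difference in wt mice alone it was number 11 and in P2rx7-/- mice alone number 4. It was also first among 478 assays detected in at least 2 samples of each group, a set chosen after seeing the data. In its Ct values, where number 1 is the lowest Ct of the sample, miR-685 moved from between 207 and 280 in the control samples to between 131 and 190 in the post-SE samples. Only 6 of the 335 assays were higher post-SE by more than 2-fold in both genotypes. The next in order were miR-324-3p (2.02 in wt and 1.97 in P2rx7-/- mice), miR-21* (2.39 and 1.95), miR-27a (3.18 and 1.47), miR-150 (5.03 and 1.41) and miR-135b (2.09 and 1.17). The distance between miR-685 and the next assay by this measure was 0.06 cycles, far below the standard error.

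The assays next in order differed in how their samples were spread. For miR-21*, the star strand of miR-21, −ΔCt in wt mice was −6.12, −6.69 and −5.64 in controls and −4.04, −3.57 and −3.67 post-SE, and in P2rx7-/- mice −6.40, −4.16 and −6.55 in controls and −3.78, −3.91 and −3.58 post-SE. Its treatments did not overlap, and 1 control sample, P2rx7-/- control replicate 2, lay close to the post-SE samples. For miR-324-3p, −ΔCt in wt mice was −3.51, 1.39 and 1.5 in controls and 1.82, 1.92 and 1.68 post-SE, and in P2rx7-/- mice −1.12, 1.29 and 1.58 in controls and 4.50, 1.84 and 1.32 post-SE. Here 2 low control samples and 1 high post-SE sample carried the difference, which was 0.34 in wt mice without wt control replicate 1. The second assay for the same miRNA, hsa-miR-324-3p, had differences of 1.65 in wt and −0.35 in P2rx7-/- mice, the former with 1 high sample, wt post-SE replicate 1 at 6.07.

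wt control replicate 1 was likewise low for miR-27a, at −7.61 where the other wt controls had 1.26 and 1.39, for miR-150, at −6.76 against 6.38 and 6.47, and for miR-135b, at −1.25 against 2.77 and 2.69. Without that sample the differences in wt mice were 0.18, 0.61 and 0.73, whereas that of miR-21* was 2.38 and that of miR-685 was 2.63. P2rx7-/- post-SE replicate 1 had the highest post-SE level in P2rx7-/- mice for miR-324-3p, miR-27a, miR-150 and miR-135b. Without it the differences in P2rx7-/- mice were 1.0 for miR-324-3p, 0.55 for miR-27a, 1.15 for miR-150 and 0.11 for miR-135b, whereas that of miR-21* was 1.96 and that of miR-685 was 1.62. Of the 6 assays higher by more than 2-fold in both genotypes, miR-685 and miR-21* were the only ones whose treatments did not overlap. Over all assays tested, 4 had all 6 post-SE samples above all 6 control samples (1.19%), and 0 had all 6 below (0.0%). The other two were miR-27a*, the star strand of miR-27a (0.93 in wt and 0.85 in P2rx7-/- mice), and miR-335* (0.93 and 0.50).

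**Figure D3:**
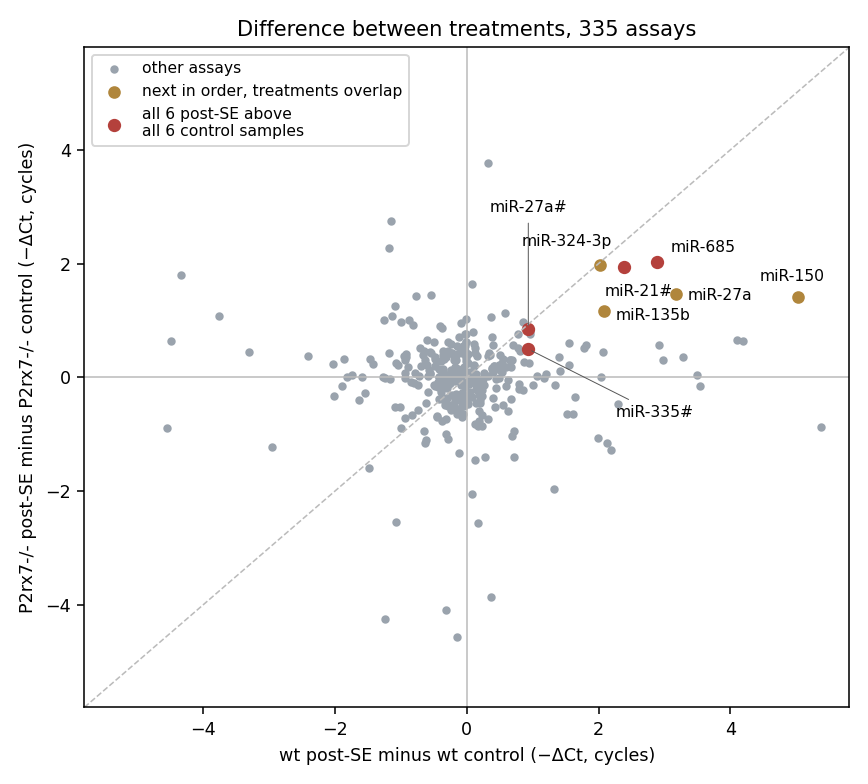
Difference between post-SE and control samples in wt (horizontal axis) and P2rx7-/- mice (vertical axis), each against controls of the same genotype, in −ΔCt (cycles) for 335 assays. miR-685 lies at 2.89 and 2.03, and red marks the 4 assays with all 6 post-SE samples above all 6 control samples. The dashed line marks equal differences.

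Across the whole table, limma called 0 of the 335 assays for status epilepticus in wt mice (0.0%) and 0 in P2rx7-/- mice (0.0%), with 13 and 10 assays at an unadjusted p below 0.05. The two-group test that the methods name also gave 0 after adjustment, with 11 and 8 before it. All these counts take in miR-685, which was chosen on the same differences, so they are a background and not a test of miR-685. Without P2rx7-/- control replicate 2, which had the high miR-21* level, limma called 1 assay in each genotype, miR-21* (adjusted p = 0.0150 in wt and 0.0130 in P2rx7-/- mice).

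The assays with the profile most like that of miR-685 were found by the Euclidean distance of −ΔCt over the 12 samples, each centred on its own mean. miR-21* was nearest, at 3.21 cycles, followed by miR-2135 (3.91), miR-27a* (3.97), miR-219-2-3p (4.06) and miR-491 (4.16). The median over the other 334 assays was 5.64, and an assay with the same value in every sample would lie at 5.03. The difference between treatments on which miR-685 was chosen enters this distance. An assay that rose in both genotypes can therefore lie near for that reason alone. What these profiles share differed. miR-21* and miR-27a* had the difference between treatments in both genotypes, but within treatments they did not follow miR-685 (r of 0.21 and 0.06 in control and −0.40 and −0.33 in post-SE samples). miR-2135 had r = 0.89 with it in control samples (exact permutation test, adjusted p = 0.939) and r = 0.12 in post-SE samples. Its difference between treatments was 1.17 in wt mice and −0.01 in P2rx7-/- mice. miR-219-2-3p, abundant in oligodendrocytes, and miR-491 had their lowest level in wt control replicate 1 and their highest in P2rx7-/- post-SE replicate 1. miR-685 was also highest in the latter sample, but its lowest was wt control replicate 3. Without P2rx7-/- post-SE replicate 1 the differences of miR-219-2-3p and miR-491 in P2rx7-/- mice were 0.13 and −0.26. Without wt control replicate 1, their differences in wt mice were 0.16 and 0.18, and only 1 of these 5 assays was still among the nearest 5, miR-21*, which remained first. Without P2rx7-/- control replicate 1, miR-32 was nearest and 2 of the 5 were still among the nearest 5.

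**Figure D4:**
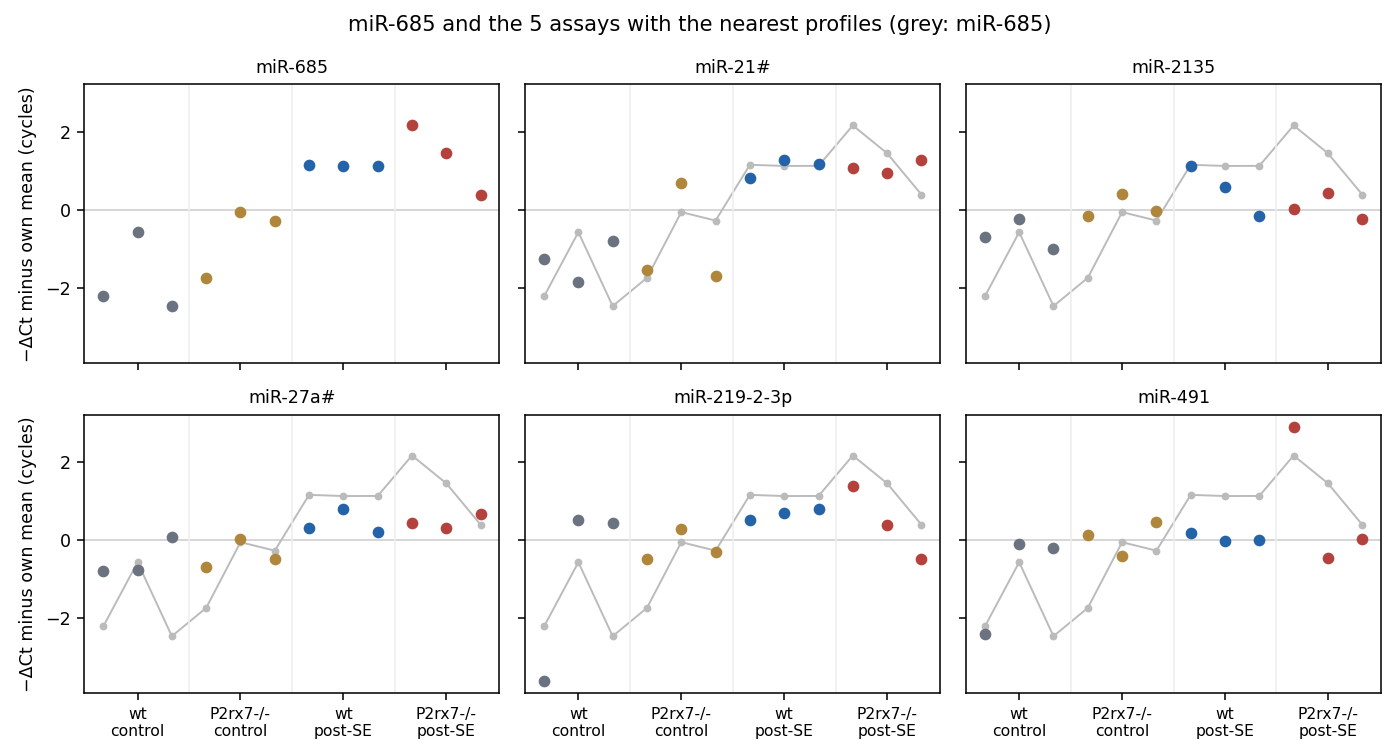
−ΔCt centred on the mean of each assay (cycles) in the 12 samples for miR-685 and the 5 assays with the smallest distance to it. Coloured points are the samples of each group in order of replicate number, and the grey line repeats miR-685. miR-21* follows the step between treatments, and in miR-219-2-3p and miR-491 wt control replicate 1 is the lowest and P2rx7-/- post-SE replicate 1 the highest sample.

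Because miR-685 fell into separate clusters by treatment, correlations with the other 334 assays were computed within the 6 control and within the 6 post-SE samples. Each set pooled both genotypes, so a coefficient can also carry a difference between genotypes. With an exact permutation test, 0 of 334 assays passed after adjustment in control samples (lowest adjusted p = 0.939) and 0 in post-SE samples (lowest adjusted p = 0.563), with 8 and 28 at an unadjusted p below 0.05. By Spearman's rho the counts were also 0 and 0, with 7 and 6 before adjustment. The smallest p that 6 samples allow is 0.00139, which cannot pass over 334 assays unless many reach it, so these counts leave relations of single assays undetectable.

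The largest coefficients in control samples belonged to miR-542-5p (r = −0.90, rho = −0.94), miR-128a, a miRNA abundant in neurons (r = 0.90, rho = 0.89), miR-2135 (r = 0.89, rho = 0.94), miR-331-5p (r = −0.89, rho = −0.83) and miR-133a, known from muscle (r = −0.88, rho = −0.89). Without the 2 samples farthest from the median of miR-685 (wt control replicate 3 and P2rx7-/- control replicate 2), their r lay between −0.95 and 0.81 and kept its sign for all 5. In post-SE samples the largest belonged to miR-412 (r = −0.96, rho = −0.66), miR-486, an erythroid miRNA (r = −0.94, rho = −0.66), miR-455 (r = −0.92, rho = −0.83), miR-27a (r = 0.92, rho = 0.66) and miR-134, which is regulated by neuronal activity (r = −0.91, rho = −0.77). Without P2rx7-/- post-SE replicates 1 and 3, the samples with the highest and the lowest level, r became −0.30 for miR-412, 0.58 for miR-486, −0.58 for miR-27a, −0.83 for miR-455 and −0.82 for miR-134. Of the 4 samples left, the 3 wt samples spanned 0.03 cycles of miR-685, so these values, and that with snoRNA135, rest on P2rx7-/- post-SE replicate 2. miR-128a had r = 0.73 in post-SE samples, and the other 4 leading assays of the control samples had r between −0.53 and 0.12 there.

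MiRNAs known to respond to seizures are described next for comparison. Of 13 names, which include miRNAs that the study itself picked out from these samples and so are no independent evidence of a direction, 10 had a Ct in all samples. Their median difference between treatments was 0.60 in wt and 0.21 in P2rx7-/- mice, against −0.09 and 0.02 over all 335 assays. The post-SE samples lay above the control samples without overlap for 4 of the 10 in wt mice (background 5.97% of 335) and 2 of the 10 in P2rx7-/- mice (background 3.88%), and below for 1 (background 5.07%) and 0 (background 2.69%). None passed limma in either genotype. Without wt control replicate 1 the median in wt mice was 0.34, and without P2rx7-/- post-SE replicate 1 that in P2rx7-/- mice was 0.37. Beside miR-21* and miR-27a*, the largest by the size of the difference averaged over both genotypes were miR-212, a miRNA induced by CREB (0.69 in wt and 0.57 in P2rx7-/- mice), and miR-34a, a target of p53 (2.30 and −0.46). The value of miR-34a in wt mice was −0.14 without wt control replicate 1. The lowest in wt mice was miR-21, the other strand of the miR-21* hairpin (−0.74 in wt and −0.13 in P2rx7-/- mice), which was −0.08 in wt mice without wt control replicate 1.

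miR-685 belongs to a run of mouse miRNAs with neighbouring numbers. Of these, 25 other names with numbers close to its own were among the deposited assay lines and 9 had a Ct in all samples. Neighbouring numbers reflect the order of naming and say nothing of a shared origin. Their median difference was 0.36 in wt and −0.05 in P2rx7-/- mice, with a range of −1.0 to 0.62 and of −3.87 to 0.97. The median in wt mice was 0.08 without wt control replicate 1, and that in P2rx7-/- mice was 0.03 without P2rx7-/- post-SE replicate 1. None reached miR-685 in either genotype, and 0 of the 9 passed limma. The largest by the difference averaged over both genotypes were miR-721 (0.36 in wt and −3.87 in P2rx7-/- mice), where P2rx7-/- post-SE replicate 2 stood alone at −2.67, miR-720 (−0.63 and −1.15), miR-704 (−0.65 and −0.94) and miR-690 (−0.45 and −0.69). miR-701 differed in opposite directions, −1.0 in wt and 0.97 in P2rx7-/- mice. Without overlap, 1 of the 9 was higher (background 5.97% of 335) and 1 lower (5.07%) in wt mice, and 0 were higher (3.88%) and 3 lower (2.69%) in P2rx7-/- mice.

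Some small RNAs first listed as miRNAs are fragments of tRNA or rRNA. Of 6 such names among the deposited assay lines, 3 had a Ct in all samples, with a median difference of −0.63 in wt and −0.57 in P2rx7-/- mice. The differences in wt and P2rx7-/- mice were −0.63 and −1.15 for miR-720 and −0.75 and −0.57 for miR-1274A, both from tRNAs, and 0.60 and 0.18 for miR-712, from rRNA. Without wt control replicate 1 the values in wt mice were −0.33 for miR-720, −0.65 for miR-1274A and 0.45 for miR-712. Both tRNA fragments lay below 0 and miR-712 above 0 in both genotypes. Without overlap, 1 of the 3 was higher (background 5.97% of 335) and 0 lower (5.07%) in wt mice. In P2rx7-/- mice 0 were higher (3.88%) and 2 lower (2.69%). Of the 3, 0 passed limma. Whether miR-685 is itself such a fragment was not tested.

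The tissue holds several cell types, and in such bulk samples more cells of a type and more RNA per cell cannot be told apart. MiRNAs abundant in single cell types were therefore set beside miR-685, with their summed level (log2 of the sum of 2 to the power −ΔCt over the members with a Ct in all samples). For neurons (2 of 7 names), the summed level ran in wt mice from 4.40 to 5.6 in controls and 5.31 to 6.18 post-SE, and in P2rx7-/- mice from 5.29 to 5.75 and 5.32 to 6.26. For oligodendrocytes (3 of 4 names), it ran from 1.90 to 2.27 and 1.71 to 2.63 in wt and from 1.34 to 1.94 and 1.39 to 4.13 in P2rx7-/- mice. For myeloid cells (4 of 5 assays, for 4 names), it ran from 5.06 to 6.71 and 4.77 to 5.69 in wt and from 5.5 to 6.48 and 5.29 to 6.69 in P2rx7-/- mice. For all 3, the treatments overlapped in both genotypes. The neuronal sum held only miR-128a and miR-137 and left out miR-9, miR-9*, miR-124a, miR-124* and miR-138. The lowest neuronal sum in wt controls was that of wt control replicate 1, and the highest sums of neuronal and oligodendrocyte miRNAs in P2rx7-/- post-SE samples were those of replicate 1. Without these samples the neuronal sums ran from 5.41 to 5.57 in wt controls and the P2rx7-/- post-SE sums reached 5.41 for neurons and 1.77 for oligodendrocytes.

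The erythroid miRNAs miR-451 and miR-486 (2 of 3 names) had summed levels of 2.41 to 4.62 in wt control and 2.12 to 2.36 in wt post-SE samples, which did not overlap, and of 2.72 to 4.15 and 2.39 to 3.23 in P2rx7-/- mice, which did. Their differences between treatments were −1.64 and −0.40 for miR-451 and −1.0 and −0.88 for miR-486 (wt and P2rx7-/- mice), in the direction opposite to miR-685. The highest sum in wt controls, 4.62, was that of wt control replicate 1, without which wt controls ran from 2.36 to 3.30 and wt post-SE samples from 2.02 to 2.31, and the differences in wt mice were −0.83 for miR-451 and −0.57 for miR-486. Without P2rx7-/- post-SE replicate 1 the differences in P2rx7-/- mice were −1.06 and −0.30. For endothelial and mural cells only miR-145 had a Ct in all samples (1 of 4 names), from 1.94 to 5.13 in controls and 4.89 to 7.94 post-SE in wt mice. In P2rx7-/- mice it ran from 4.79 to 5.49 and 4.73 to 5.97. The lowest wt control value was that of replicate 1, without which the wt controls ran from 4.55 to 5.08 and the difference in wt mice was 1.04 in place of 2.04. Of all members of these lists, 0 passed limma in either genotype. The part of blood or of any cell type in the level of miR-685 was not tested.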

How the data were processed

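The 12 samples, grouped by their labels, each gave 1 μg of hippocampal RNA for the TaqMan OpenArray. The authors deposited unnormalized Ct values (a score per assay and sample, empty where no Ct was listed) and fold changes (a ratio to wt control replicate 1 after global mean normalization). All columns could be assigned to a sample (0 left out). The software that called the Ct is not given in the sources used here. From the Ct values, −ΔCt was computed with the mean of the 335 assays below 28 in all samples. Log2 values of the deposited fold changes were used only as an alternative. The Ct table gives no read depth, and precision is limited by 3 pools per group and 1 well per miRNA.

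limma 3.58.1 (R 4.3.3, lmFit and eBayes) was fitted over all 12 samples with 1 coefficient per group, and p-values were adjusted over 335 assays by the Benjamini-Hochberg method and called below 0.05. This adjusted p is meant wherever limma is named. Exact permutation tests, correlations and counts used scipy 1.17.1, statsmodels 0.14.6, pandas 2.3.3 and numpy 2.4.6 under Python 3.11.15, and figures matplotlib 3.10.9. Scripts were tested on simulated data. miR-685, the tests and the miRNA lists were chosen with earlier results of these data known. Named were miR-685, the control assays, the 5 nearest profiles, the 5 assays next in order of response, the 5 largest correlations within each treatment and up to 4 members per list with the largest difference averaged over both genotypes. miR-335*, miR-32, miR-124a, miR-124*, miR-9, miR-9*, miR-138, miR-701 and miR-21 were named after their values were seen. Alternatives covered the normalizer, a Ct limit of 26, leaving out each sample, the replicate block, limma settings and the methods' Student test.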

Additional observations from a re-analysis of the deposited data

How the results depend on the processing

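The difference of miR-685 between treatments kept its direction in both genotypes under every alternative run, from 2.5 to 3.17 in wt and 1.99 to 2.22 in P2rx7-/- mice over the other normalizers, quantile normalization, a Ct limit of 26 and the replicate block, and from 2.53 to 3.48 and 1.49 to 2.51 without each sample in turn. Under all of these, every post-SE sample lay above every control sample. Normalizing to the snoRNA135 wells within 1 cycle of their median, an alternative chosen after seeing the data, gave 3.17 and 2.01. The smaller response in P2rx7-/- mice ran from −1.08 to −0.36, and from −1.45 to −0.37 without each sample. miR-685 was first in order under all normalizers but second to miR-21* without P2rx7-/- control replicate 1 or 2 or P2rx7-/- post-SE replicate 1, and behind 2 other assays without P2rx7-/- post-SE replicate 2.

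The genotype difference never passed the test (adjusted p from 0.367 to 0.982 in control, 0.979 to 1.000 post-SE and 0.551 to 0.999 averaged). It ran from 0.60 to 1.52 in control, from 0.18 to 0.44 post-SE and from 0.42 to 0.98 averaged, and without each sample from 0.70 to 1.65, from −0.22 to 0.68 and from 0.42 to 0.93. It reversed post-SE to −0.22 without P2rx7-/- post-SE replicate 1. The count of single references separating all samples was 134 with a Ct limit of 26 and 137 to 220 without each sample. The sets differed in size, with 313 assays, miR-685 included, at the limit of 26 and 335 to 382 without each sample. Counts of assays called for status epilepticus were 0, and 0 to 1 without each sample. Counts of correlated assays were 0 under all alternatives run.

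For the other named assays, differences in wt mice without wt control replicate 1 and in P2rx7-/- mice without P2rx7-/- post-SE replicate 1 were added after seeing the data. Of these values 58 moved by less than 1 within-group SD of the assay, 4 moved by more and 12 changed sign. This SD includes the sample left out, so a move below it can still be a large loss. In wt mice miR-324-3p fell from 2.02 to 0.34 and miR-135b from 2.09 to 0.73, and both count among the 58. The values that changed sign in wt mice became −0.10 for miR-128a, −0.14 for miR-219, 0.12 for miR-331-5p and −0.14 for miR-34a. In P2rx7-/- mice they changed to −0.22 for miR-128a, −0.35 for miR-142-3p, −0.34 for miR-145, −0.11 for miR-219, 0.078 for miR-223 (1 of 2 assays), −0.14 for miR-137, 0.028 for miR-2135 and −0.26 for miR-491. The cause was not tested.

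Not all same-numbered samples deviated together (correlations of −0.23 to 0.28, over 0.1 in 4 of 18 pairs), so the numbers were not taken as pairs. Replicate 3 samples of all groups but wt control correlated with each other at 0.25 to 0.28, and these 3 of the 12 samples had their highest mean correlation with their own number. With replicate number as a block the differences were 2.89 in wt, 2.03 in P2rx7-/- mice, −0.86 between these, 1.06 for genotype in control, 0.20 post-SE and 0.63 averaged, with 0 calls for status epilepticus in either genotype. With 3 samples against 3, no exact permutation p could fall below 0.1.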
